A study of Mus musculus with 12 samples.

Results

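The subunits of respiratory complexes II to V were followed in the quadriceps muscle of C57Bl/6J mice given vehicle, AICAR, GW1516 or both drugs. Members were taken by gene symbol in the array annotation: Sdha, Sdhb, Sdhc, Sdhd, Cyc1, Cycs, and every symbol that starts with Uqcr, Cox4 to Cox8 or Atp5. This gave 48 genes of 18193 with a symbol of their own: 4 of complex II, 9 of complex III, cytochrome c, 17 of complex IV and 17 of complex V. After the dimmest 40% of probe sets were left out, 46 of the 48 remained among 12771 genes tested. Cox6b2 and Cox7b2, both known as testis forms, were the 2 below that limit, with mean signals of 6.08 and 10.5. Symbols are those of the annotation, so the ATP synthase genes keep their older Atp5 names.

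Each of the 4 groups had 3 Affymetrix arrays, and each array held RNA pooled from 3 mice, so the spread between arrays is between pools and not between single mice. The vehicle group received no drug, the AICAR group 250 mg/kg/day, the GW1516 group 5 mg/kg/day and the combination group both doses, each for 6 days. AICAR is taken up and turned into an AMP mimic that activates AMP-activated protein kinase, and GW1516 activates PPAR delta, a nuclear receptor for fatty acids. The labels give no age, sex or genetic change for these mice. Nothing in the labels says how the pools were drawn beyond this, so p-values measure only the spread between these pools. The design asks whether each drug alone, or both together, changed gene expression in this muscle, and here the question is put to the respiratory chain downstream of complex I.

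Complex II, succinate dehydrogenase, passes electrons from succinate to ubiquinone and also works in the tricarboxylic acid cycle. Complex III hands them to cytochrome c, and complex IV, cytochrome c oxidase, hands them to oxygen, while complex V, ATP synthase, uses the resulting proton gradient to make ATP. Oxidative muscle fibres hold more of these proteins than glycolytic fibres, and their nuclear genes are known targets of NRF1, GABPA, the oestrogen-related receptors and their coactivator PGC-1 alpha, which endurance exercise engages. Several complex IV subunits exist in a heart and skeletal muscle form and a form found in most tissues.

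The upstream sequences of 3 members, Cox8a, Cox8b and Cycs, are shown as a description and were not related to any expression value. Cox8a was the member whose difference between groups was largest relative to its error. Cox8b is its heart and muscle counterpart, and Cycs the carrier between complexes III and IV. RefSeq (GRCm38.p6) gives the 250 bases before the start of each gene, 5' to 3' on the gene's own strand, which is the minus strand in all 3. Capitals mark matches to a CRE core (TGACGTC, or GACGTCA when read on the other strand), a muscle E-box (CAGCTG) or an NRF1 core (GCGCATG, or CATGCGC on the other strand).
Cox8a, chr19:7217617-7217866: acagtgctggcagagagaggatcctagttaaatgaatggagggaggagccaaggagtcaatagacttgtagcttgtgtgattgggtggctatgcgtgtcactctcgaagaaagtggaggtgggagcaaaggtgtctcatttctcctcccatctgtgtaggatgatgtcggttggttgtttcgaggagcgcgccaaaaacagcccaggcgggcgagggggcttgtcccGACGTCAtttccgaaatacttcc
Cox8b, chr7:140900447-140900696: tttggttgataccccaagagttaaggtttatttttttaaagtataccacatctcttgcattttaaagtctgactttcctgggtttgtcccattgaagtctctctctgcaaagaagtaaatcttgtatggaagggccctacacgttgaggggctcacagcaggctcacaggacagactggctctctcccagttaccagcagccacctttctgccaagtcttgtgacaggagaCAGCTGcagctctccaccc
Cycs, chr6:50566570-50566819: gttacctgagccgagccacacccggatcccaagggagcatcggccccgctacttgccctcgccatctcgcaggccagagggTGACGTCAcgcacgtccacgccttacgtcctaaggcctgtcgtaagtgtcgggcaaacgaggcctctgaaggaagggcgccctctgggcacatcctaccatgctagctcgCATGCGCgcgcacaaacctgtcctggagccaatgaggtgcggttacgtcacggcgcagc
The match began 23 bases before the start in Cox8a and 19 bases before it in Cox8b. In Cycs the CRE core matched both strands at bases 169 and 168 before the start, which overlap, and the NRF1 core matched at base 59.

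Of the 48 members, 36 had an entry in the RefSeq promoter table, and 7 short motifs were searched on both strands from 250 bases before to 50 bases after the start. The NRF1 core GCGCATG was in 25% of the 36 members, in 6.8% of the promoters of genes tested and in 4.04% of all 27025 promoters. The GABPA-type ETS core CCGGAAG was in 33.3% of members against 16.8% of genes tested and 9.12% of all promoters. The oestrogen-related receptor element AAGGTCA was in 13.9% of members, 3.27% of genes tested and 4.66% of all promoters. A CRE core, TGACGTC, was in 11.1% of members (Atp5md, Cox8a, Cycs and Uqcrfs1), 5.29% of genes tested and 3.33% of all promoters. The YY1 core AAGATGG was in 8.33%, 7.07% and 6.48% in the same order. The GC box GGGCGG was in 41.7% of members, 61.7% of genes tested and 35.9% of all promoters, and the muscle E-box CAGCTG in 5.56%, 15.2% and 16.1%. These are matches of letters within the window and say nothing of binding.

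Expression values are MAS5 signals, a linear brightness for each probe set after scaling of the whole array, and the array medians ran from 45.4 to 54.2. Of the 46 members tested, 42 had a mean signal above 1000, and the other 4 were Cox8a at 996, Cox8c at 183, Cox4i2 at 84.2 and Cox7c at 42.9. Signals of different probe sets are not on one scale, so each gene is compared only with itself. The median standard error (SE) of a log2 difference from vehicle was 0.09 for members and 0.19 over all genes tested. Of 10 reference genes, picked with earlier results of these data known and so no independent check of the drugs, 0 were called under AICAR, 5 were called higher under GW1516, and 8 higher and 1 lower under the combination. Among the 5 were the known PPAR targets Ucp3, at 1.35 (log2), and Acadl, at 0.92, each with an adjusted limma p of 0.00583. All 10 muscle defining markers, among them Acta1 and Ckm, passed the limit on dim probe sets. RNA came from whole muscle, in which fewer cells of a type and less RNA per cell cannot be told apart.

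The GW1516 arrays stood apart in spread. The median coefficient of variation of a member between the 3 arrays of a group was 2.97% under vehicle, 2.54% under AICAR, 5% under the combination and 15.1% under GW1516. GW1516 replicate 2 was the lowest of all 12 arrays for 35 of the 46 members, and GW1516 replicate 1 was the highest for 28. Relative to the vehicle mean, the median member stood at 0.14, -0.22 and -0.11 (log2) on GW1516 replicates 1, 2 and 3. The 500 brightest genes outside the members stood in the same order on those arrays, with medians of 0.09, -0.09 and 0.01. On GW1516 replicate 2 the 8 fibroblast and matrix markers tested had a median of -1.32 and the 18 atrophy and FOXO genes a median of 0.95, and the part of either in the members' values was not tested. Values for all members together that rest on the GW1516 group are therefore given also without its replicates 1 and 2. This covers medians, counts above zero and counts at an unadjusted p below 0.05.

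**Figure D1:**
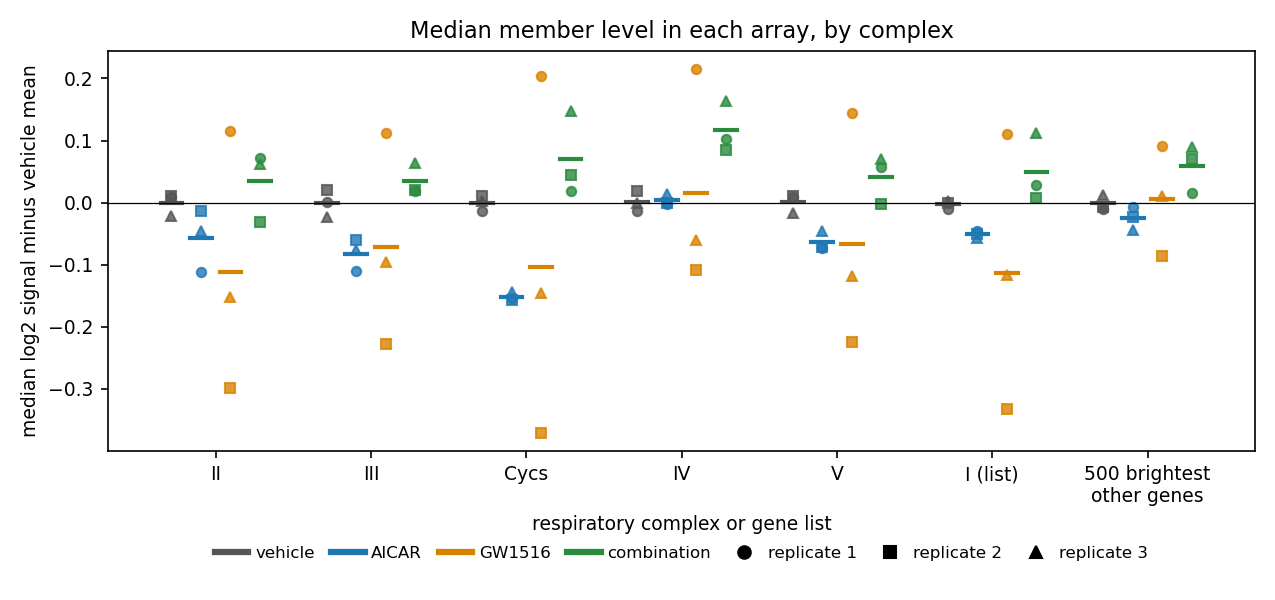
Median over the members of each complex of the log2 signal minus the vehicle mean, by array, with complex I subunits and the 500 brightest other genes beside them. Symbols are the 3 replicates of a group and bars their mean; the 3 GW1516 arrays run from 0.14 to -0.22 over all members, while the vehicle arrays lie within 0.02 of zero.

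No member was called in any comparison. Calls needed an adjusted limma p below 0.05 (Benjamini-Hochberg over all 12771 genes), and 0 of 46 members were called under AICAR against vehicle, where 0.00783% of all genes tested were. The count was also 0 of 46 for GW1516 against vehicle (0.094% of all genes) and for the combination against vehicle (0.258%). It was 0 for the average AICAR effect over both GW1516 states (0.0313% of all genes), for the average GW1516 effect (0.149%) and for the moderated F test over the 4 groups (0.11%). For the interaction, the combination's difference from vehicle less those of AICAR and of GW1516, 0 members and 0% of all genes were called. With so few genes called in all, a count of 0 among 46 is near the background.

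At an unadjusted limma p below 0.05 the share of members was below that of all genes in each of these comparisons but the interaction. There was 1 member (2.17%) under AICAR against 6.93% of all genes, 0 under GW1516 against 9.64%, and 2 (4.35%) under the combination against 10.9%. The average AICAR effect gave 2 members (4.35%, against 10.4% of all genes), the average GW1516 effect 1 (2.17%, against 9.51%) and the F test 1 (2.17%, against 10.4%). The interaction gave 4 members (8.7%) against 6.64% of all genes. The differences themselves were small. Between the group means and vehicle they ran from -0.17 for Cyc1 to 0.60 for Cox7c under AICAR, from -0.18 for Atp5j2 to 0.23 for Cox4i2 under GW1516, and from -0.29 for Cox4i2 to 0.60 for Cox8a under the combination (all log2).

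**Figure D2:**
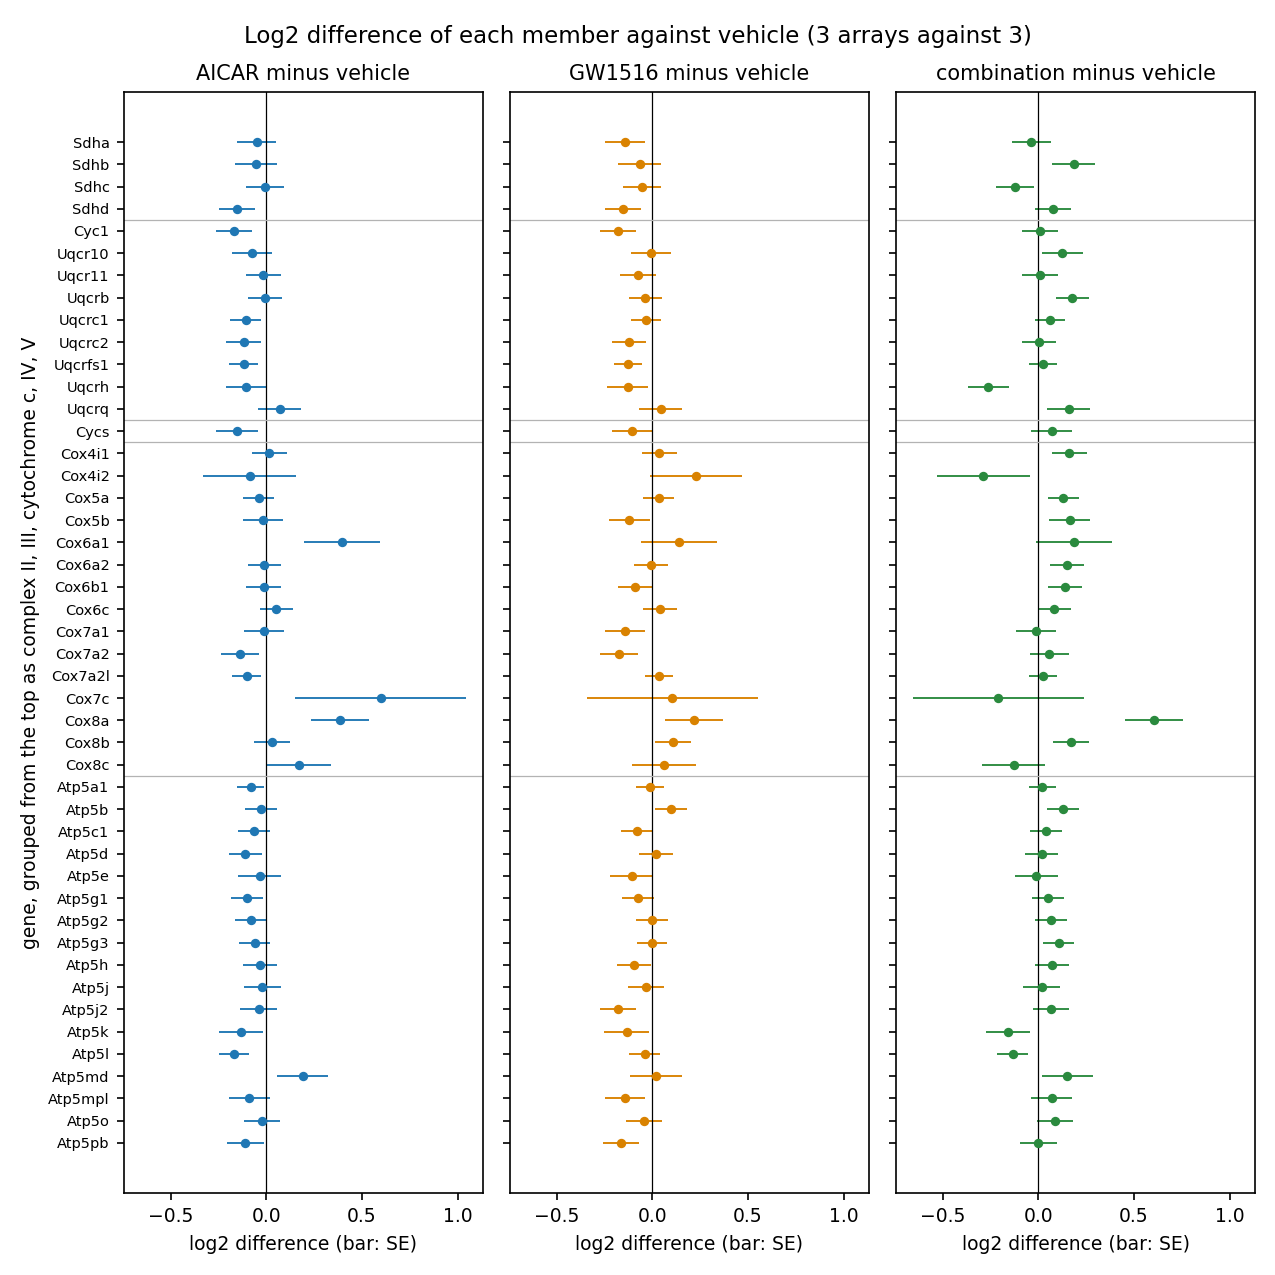
Log2 difference from vehicle of each of the 46 members tested, under AICAR, GW1516 and the combination, with bars of 1 SE from the limma fit. Most points lie within 0.2 of zero, and Cox8a under the combination, at 0.60, is the farthest from zero relative to its error.

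Under AICAR the median member stood slightly below vehicle on each of the 3 arrays, and no member was called. The median difference from vehicle was -0.05 (log2) over the 46 members and 0.01 over all genes tested, and 37 of the 46 lay below zero. The median member stood at -0.07, -0.04 and -0.04 on the 3 AICAR arrays and between -0.02 and 0.02 on the vehicle arrays. For 18 members (39.1%) all 3 AICAR arrays lay below all 3 vehicle arrays, against 9.03% of all genes tested. They were Sdhd of complex II, Cyc1, Uqcr10, Uqcrc1, Uqcrc2, Uqcrfs1 and Uqcrh of complex III, Cycs, Cox7a2 and Cox7a2l of complex IV, and 8 of complex V. On its further bright probe sets Uqcr10 stood at 0.09 and 0.05 under AICAR, the opposite direction. Only Cox8a and Atp5md (4.35%, against 9.3% of all genes) had all 3 AICAR arrays above vehicle. The 46 members share the arrays' scaling, so they are not 46 separate observations of it. The median member was negative under quantile normalization (-0.03), median centring (-0.16) and centring on the 500 brightest other genes (-0.02). Median centring by itself moved the median of all genes by -0.11. Members above zero numbered 9 as deposited and 15, 5 and 19 under those 3 settings. The 500 brightest other genes stood at -0.01, -0.02 and -0.04 on the AICAR arrays, and their part in the members' values was not tested.

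Under GW1516 the median difference was -0.04 over the members and -0.01 over all genes, and 32 of 46 members lay below zero. The 3 arrays did not share that direction, since replicate 1 was above vehicle and the others below. Without GW1516 replicate 1 the median member was at -0.16, and 5 of 46 members lay above zero. Without replicate 2 the median member was at 0.03, and 29 of 46 lay above zero, where 14 did with all arrays. No member (0%) had all 3 GW1516 arrays below vehicle, against 7.91% of all genes tested, and Cox8a alone (2.17%, against 6.3%) had all 3 above. With replicate 1 left out, 21 members (45.7%, against 13.9% of all genes) had an unadjusted limma p below 0.05 for GW1516 against vehicle, and with replicate 2 left out 1 had (2.17%, against 6.88%). All groups share one estimate of the spread, so the same step changed the other counts at that limit. Without replicate 1 they were 6 under AICAR (13%, against 7.35% of all genes), 11 under the combination (23.9%, against 11.7%) and 29 in the F test (63%, against 14.2%). Without replicate 2 they were 6 (13%, against 9.35%), 6 (13%, against 14%) and 7 (15.2%, against 11.6%). In both cases 0 members were called in every comparison.

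Under the combination the median member was 0.06 above vehicle, with a median of -0.0048 over all genes tested, and 36 of 46 members lay above zero. Beside them, 12 of 12 fast-twitch fibre markers lay above zero with a median of 0.19, and 8 of 10 muscle defining markers with a median of 0.21. The 8 slow-twitch fibre markers had a median of 0.05. Fast-twitch markers lay mostly above zero also under AICAR (11 of 12, median 0.09) and GW1516 (9 of 12, median 0.12). Muscle defining markers did too, 9 of 10 in each, with medians of 0.07 and 0.11. Most members lay below zero in those 2 comparisons. The part of these markers in the members' values was not tested. No gene of these 3 lists was called. On the 3 combination arrays the median member stood at 0.06, 0.03 and 0.09, and the 500 brightest other genes at 0.02, 0.07 and 0.09. Whether the level of the brightest genes had a part in the members' values was not tested. In 15 members (32.6%) all 3 combination arrays lay above all 3 vehicle arrays, against 8.9% of all genes, and in 1, Uqcrh (2.17%, against 9.69%), all 3 lay below. The direction depended on scaling: the median member was at 0.0029 after quantile normalization, at -0.01 after median centring, which put the median of all genes at -0.08, and at 0.01 after centring on the brightest other genes. Complexes II, III and V changed sign with these settings, from medians of 0.02, 0.02 and 0.05 to -0.03, -0.02 and -0.01 after quantile normalization, while complex IV stayed above zero between 0.03 and 0.13 in the values as deposited and under these 3 settings.

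The direction under the combination also depended on which probe set stood for a gene. Of the 48 members, 28 had more than 1 probe set past the limit on dim ones, with 41 further probe sets among them. Under AICAR 29 of those 41 had the sign of the brightest probe set of their gene and under GW1516 33 had, but under the combination 18 had. The 28 further probe sets with a mean signal above 1000 had a median of -0.06 under the combination, with 18 below zero, against -0.07 under AICAR, with 24 below zero. Uqcrb, a small subunit needed to assemble complex III, is an example: its brightest probe set was at 0.18 under the combination and its second at -0.25. Cox6a2 likewise stood at 0.15 on its brightest and -0.14 on its second. Cox5b was an exception, with 4 bright probe sets between 0.13 and 0.16. When the probe sets of each gene were averaged, the median member was at 0.01 under the combination and at -0.06 under AICAR.

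Averaged over both states of the other drug, the median member stood at 0.03 for AICAR and 0.02 for GW1516. The AICAR value was -0.09 after median centring, which put the median of all genes at -0.11, and -0.01 without GW1516 replicate 2. The GW1516 value was -0.02 after quantile normalization and after centring on the brightest other genes, which put the median of all genes at -0.06. It was -0.0043 when the probe sets of each gene were averaged, and -0.03 without GW1516 replicate 1. The members at an unadjusted p below 0.05 for the average AICAR effect numbered 16 (34.8%, against 12.2% of all genes) without GW1516 replicate 1 and 4 (8.7%, against 11.7%) without replicate 2. For the average GW1516 effect they numbered 5 (10.9%, against 11.8%) and 10 (21.7%, against 9.42%).

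The combination compared directly with each drug, a pair of comparisons added after the data were seen, had medians of 0.12 against AICAR and 0.12 against GW1516, with 37 of 46 members above zero in each. Both share the combination arrays, so they are not independent. Against AICAR 0 members were called (0.0313% of all genes) and 2 (4.35%, against 7.32%) had an unadjusted p below 0.05, Sdhd and Uqcrc1. All 3 combination arrays lay above all 3 AICAR arrays in 24 members (52.2%, against 6.8% of all genes) and below them in 1, the testis form Cox8c (2.17%, against 7.68%). Against GW1516 0 members and 0% of all genes were called, while 8 members (17.4%, against 10.4%) had an unadjusted p below 0.05, all higher. That count was 32 (69.6%, against 14.6% of all genes) without GW1516 replicate 1, 3 (6.52%, against 8.73%) without GW1516 replicate 2 and 1 (2.17%, against 8.03%) without combination replicate 3. Against AICAR the count was 19 (41.3%, against 8.04%) without GW1516 replicate 1 and 15 (32.6%, against 9.8%) without GW1516 replicate 2. Only Cox8a (2.17%, against 6.77% of all genes) had all 3 combination arrays above GW1516, and only Cox4i2 (2.17%, against 6.08%) had all 3 below. Without GW1516 replicate 1 the median member was 0.23 above GW1516, with 40 of 46 members above zero. Without replicate 2 the median member was 0.03 above, with 31 of 46 above zero. Against AICAR the median member was 0.04 after quantile normalization and after centring on the brightest other genes, and 0.16 after median centring.

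The interaction was above zero in 37 of 46 members, with a median of 0.15 against -0.0034 over all genes tested. In the same comparison 0 of 11 adipocyte markers lay above zero (median -1.16), and 1 of 18 atrophy and FOXO genes did (median -0.40), and their part in the members' values was not tested. It compares how far the combination exceeds what the 2 separate differences add up to, and it draws on all 12 arrays. Without GW1516 replicate 1 the median interaction was 0.27, with 41 of 46 members above zero. Without replicate 2 it was 0.07, with 32 of 46 above zero. With replicate 1 left out, 32 members (69.6%, against 10.4% of all genes) had an unadjusted p below 0.05, and with replicate 2 left out 5 had (10.9%, against 6.34%). Under the other scalings the median stayed positive, at 0.08 after quantile normalization, 0.15 after median centring and 0.07 after centring on the brightest other genes. The 4 members with an unadjusted p below 0.05 were Sdhd at 0.38, Cox7a2 at 0.37, Cyc1 at 0.36 and Uqcrfs1 at 0.27, with adjusted limma p-values of 0.723 for each.

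**Figure D3:**
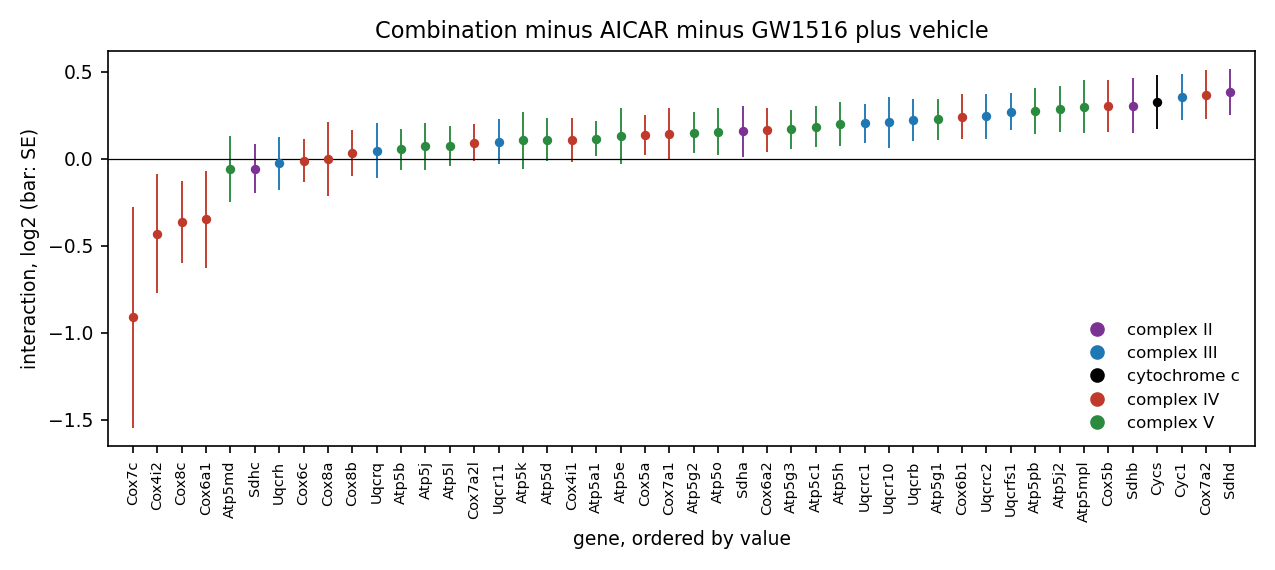
Interaction (difference from vehicle under the combination less the differences under AICAR and GW1516, log2) of the 46 members tested, ordered by value and coloured by complex, with bars of 1 SE. Of these, 37 lie above zero, with 3 of 4 in complex II, 8 of 9 in III, 9 of 15 in IV and 16 of 17 in V, and the 4 lowest, Cox7c, Cox4i2, Cox8c and Cox6a1, all belong to complex IV. Cox7c, Cox4i2 and Cox8c are dim, with mean signals of 42.9, 84.2 and 183.

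The 4 subunits of complex II had median differences of -0.05 under AICAR, -0.10 under GW1516 and 0.02 under the combination. The GW1516 median was -0.24 without GW1516 replicate 1 and -0.0070 without replicate 2. Sdhd, a membrane anchor that helps bind ubiquinone, had the smallest F-test p of this complex (adjusted limma p 0.495). Its signals were 6561, 6712 and 6605 on the vehicle arrays and 5888, 6103 and 5903 on the AICAR arrays. They were 6886, 5055 and 6064 under GW1516 and 6717, 6892 and 7393 under the combination. The AICAR arrays were all below vehicle and the combination arrays all above it, replicate 1 only narrowly, while the GW1516 arrays overlapped vehicle. The log2 difference was -0.15 (SE 0.09) under AICAR and 0.08 (SE 0.09) under the combination. A second, far dimmer probe set of Sdhd stood at 0.62 under AICAR, the opposite direction, and with the mean of its probe sets the interaction of Sdhd was 0.01 in place of 0.38. Sdha, the flavoprotein that oxidises succinate, stood at -0.05, -0.14 and -0.04 in the 3 comparisons with vehicle. Sdhb, the iron-sulphur subunit, had all 3 combination arrays above vehicle (0.19, SE 0.11), and Sdhc, the other anchor, stood at -0.12 there. On a second bright probe set Sdha stood at 0.15 and Sdhc at 0.22 under the combination, the opposite direction.

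Complex III had medians of -0.11 under AICAR, -0.07 under GW1516 and 0.02 under the combination, and its GW1516 median was -0.19 without GW1516 replicate 1 and 0.02 without replicate 2. Cyc1, cytochrome c1, which passes electrons on to cytochrome c, had the lowest difference of all members under AICAR. Its signals were 7592, 7591 and 7309.8 under vehicle and 6546, 6706 and 6769.7 under AICAR. Under GW1516 they were 7758, 5579 and 6729 and under the combination 7455, 7544 and 7645. The AICAR arrays were all below vehicle, the GW1516 arrays lay on both sides of it, and the combination arrays overlapped it. The differences were -0.17 (SE 0.09), -0.18 (SE 0.09) and 0.01 (SE 0.09), with adjusted limma p-values of 0.755, 0.564 and 0.979.

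Uqcrfs1, the Rieske iron-sulphur protein, followed the same outline. Its signals were 8143, 8309.9 and 8033 under vehicle, 7237, 7587 and 7741 under AICAR, 8374, 6997 and 7129.6 under GW1516 and 8260.5, 8306 and 8336 under the combination. Again only the AICAR arrays were clear of vehicle, with a difference of -0.12 (SE 0.07) and 0.02 under the combination. Uqcrc1 and Uqcrc2, the core proteins of the matrix side, were at -0.11 and -0.12 under AICAR, each with all 3 arrays below vehicle.

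Uqcrb had the smallest F-test p of complex III (adjusted limma p 0.534). Its brightest probe set read 16269, 15474 and 15866 under vehicle, 16028, 16075 and 15295 under AICAR, 17147, 13832 and 15602 under GW1516 and 16438, 17926 and 19649 under the combination. The combination arrays were all above vehicle, by 0.18 (SE 0.09), but the second probe set was lower under the combination, as given above. Uqcrh, the acidic hinge protein that helps cytochrome c dock, went the other way. It read 8098, 8287 and 8193 under vehicle, 7589.9, 7433 and 7817 under AICAR, 8514, 6439 and 7666 under GW1516 and 7999, 6111 and 6528 under the combination. All 3 combination arrays were below vehicle, replicate 1 only narrowly, and the difference was -0.26 (SE 0.11, unadjusted p 0.0279, adjusted p 0.387, limma). A second bright probe set of Uqcrh gave -0.04. The remaining small subunits, Uqcr10, Uqcr11 and Uqcrq, lay between -0.07 and 0.16 in the comparisons of AICAR and the combination with vehicle.

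Cycs, the soluble carrier whose upstream sequence is printed above, had signals of 10678, 10855 and 10803 under vehicle and 9687, 9673 and 9755 under AICAR. Under GW1516 it read 12408, 8338 and 9749 and under the combination 10916, 11111 and 11935. The 3 AICAR arrays agreed closely and lay below vehicle, the combination arrays lay above vehicle, and the GW1516 arrays spread over both sides. The differences were -0.15 (SE 0.11), -0.10 (SE 0.11) and 0.07 (SE 0.11), with an adjusted F-test p of 0.614 in limma. Its 2 further bright probe sets gave -0.09 and -0.23 under AICAR, the same direction, and 0.06 and -0.16 under the combination, which differ in sign.

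The medians of complex IV were -0.01 under AICAR, 0.04 under GW1516 and 0.13 under the combination, each above those of the other complexes, a difference that was not tested. Its GW1516 median was -0.07 without GW1516 replicate 1 and 0.11 without replicate 2. The AICAR median of complex IV was 0.04 after quantile normalization, 0.02 after centring on the brightest other genes and -0.13 after median centring. Over the settings that left out no single array, its combination median ran from 0.02 to 0.13. That of complex II ran from -0.06 to 0.15, so the order of these complexes under the combination depended on the setting. Cox8a, the form of the smallest subunit found in most tissues, was the only member with an unadjusted F-test p below 0.05 (0.00916, adjusted 0.348, limma). Its signals were 834, 779.6 and 810.0 under vehicle and 848, 959 and 1450.2 under AICAR. They were 875, 930.1 and 1023 under GW1516 and 1143, 1225 and 1323 under the combination. Every treated array was above every vehicle array, the combination arrays were also above all GW1516 arrays, and AICAR replicate 3 was the highest of the 12. The difference was 0.39 (SE 0.15, adjusted p 0.652) under AICAR, 0.22 (SE 0.15, adjusted p 0.659) under GW1516 and 0.60 (SE 0.15, adjusted p 0.153) under the combination, all by limma. A second probe set of similar brightness gave 0.32, 0.28 and 0.38, the same directions.

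Whether Cox8a was called under the combination rested on the arrays in the fit. With only the 6 vehicle and combination arrays its adjusted limma p was 0.0157, and without AICAR replicate 3 it was 0.0224. Under the other alternatives the adjusted p ran from 0.0853 to 0.436, the highest where the second probe set was used. Without AICAR replicate 3 the AICAR difference was 0.16 in place of 0.39. The average AICAR effect on Cox8a was 0.39 (SE 0.11, adjusted p 0.24).

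Adipocyte markers varied between the arrays as well. All 11 adipocyte markers named on the array passed the limit on dim probe sets, of 13 listed, and their signals summed to between 10112 and 16629 on the vehicle arrays and between 11617 and 29248 on the AICAR arrays. The sums ran from 11831 to 20042.5 under GW1516 and from 12534 to 24642 under the combination. Their median relative to the vehicle mean was -0.10, 1.15 and 1.87 on AICAR replicates 1, 2 and 3, the order of the Cox8a signals on those arrays. On the combination arrays it was 1.43, 0.50 and -0.13, the reverse of the order of Cox8a there. The part of adipocytes in the Cox8a values was not tested.

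Cox8b, the heart and muscle form of the same subunit, read 13510.1, 14468 and 13386 under vehicle, 14426, 13909 and 13917 under AICAR, 17627, 13338 and 13899 under GW1516 and 14896, 15416 and 16245 under the combination. Its combination arrays were all above vehicle, by 0.17 (SE 0.09, adjusted p 0.531, limma), and it stood at 0.03 under AICAR. The log2 ratio of Cox8b to Cox8a within an array was 4.02, 4.21 and 4.05 under vehicle and 4.09, 3.86 and 3.26 under AICAR. It was 4.33, 3.84 and 3.76 under GW1516 and 3.70, 3.65 and 3.62 under the combination. These ratios compare a gene pair across arrays and are no measure of which form is more abundant. The combination arrays were all below vehicle, by 0.43 on the log2 scale, with an exact two-sided permutation p of 0.1, the smallest that 3 arrays against 3 allow. Over all 6 arrays with AICAR against the 6 without, the ratio differed by -0.34 with an exact permutation p of 0.0368, or 0.5 after Benjamini-Hochberg adjustment over the 30 isoform comparisons made. That value ran from -0.43 to -0.16 over the alternatives tried.

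Cox6a1, the general form of a subunit at the interface of the oxidase dimer, varied between the AICAR arrays. It read 2111, 1784 and 1972 under vehicle, 1805, 2848 and 3291 under AICAR, 2421, 1640.3 and 2511 under GW1516 and 2522, 2243 and 1944 under the combination. AICAR replicates 2 and 3 were above every other array and replicate 1 was within the vehicle range. In each of the 4 groups the Cox6a1 signals stood in the order of the adipocyte marker medians, whose part was not tested. Those medians were 0.59, -0.52 and -0.16 on the vehicle arrays and 0.68, 0.18 and 1.23 on the GW1516 arrays, with the others given above. The AICAR difference of Cox6a1 was 0.40 (SE 0.20, adjusted limma p 0.74). Its muscle form Cox6a2 read 15999.9, 16600.5 and 16477 under vehicle and 16699, 16354 and 15725 under AICAR, a difference of -0.01. Under GW1516 Cox6a2 read 19133, 14867 and 15220.2 and under the combination 17410.5, 18708 and 18365, all 3 of the latter above vehicle.

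Cox7a2, the general form of a subunit whose family links complex IV to complex III, read 12164, 12328 and 12356 under vehicle and 11161, 11023 and 11323 under AICAR. Under GW1516 it read 12921, 9021 and 11104 and under the combination 12499, 12622 and 13254. The AICAR arrays were all below vehicle and the combination arrays all above, with differences of -0.14 (SE 0.10) and 0.06 (SE 0.10), though its second probe set was at -0.06 under the combination. Its muscle form Cox7a1 read 4934, 4913 and 4923 under vehicle, 4897, 4708 and 5058 under AICAR, 5365, 3759 and 4382 under GW1516 and 5258, 4612 and 4799 under the combination. The coefficient of variation of Cox7a1 between the vehicle arrays was 0.207%, and every treated group had arrays on both sides of them. The change of the Cox7a1 to Cox7a2 ratio under AICAR was 0.13, with an exact permutation p of 0.1.

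**Figure D4:**
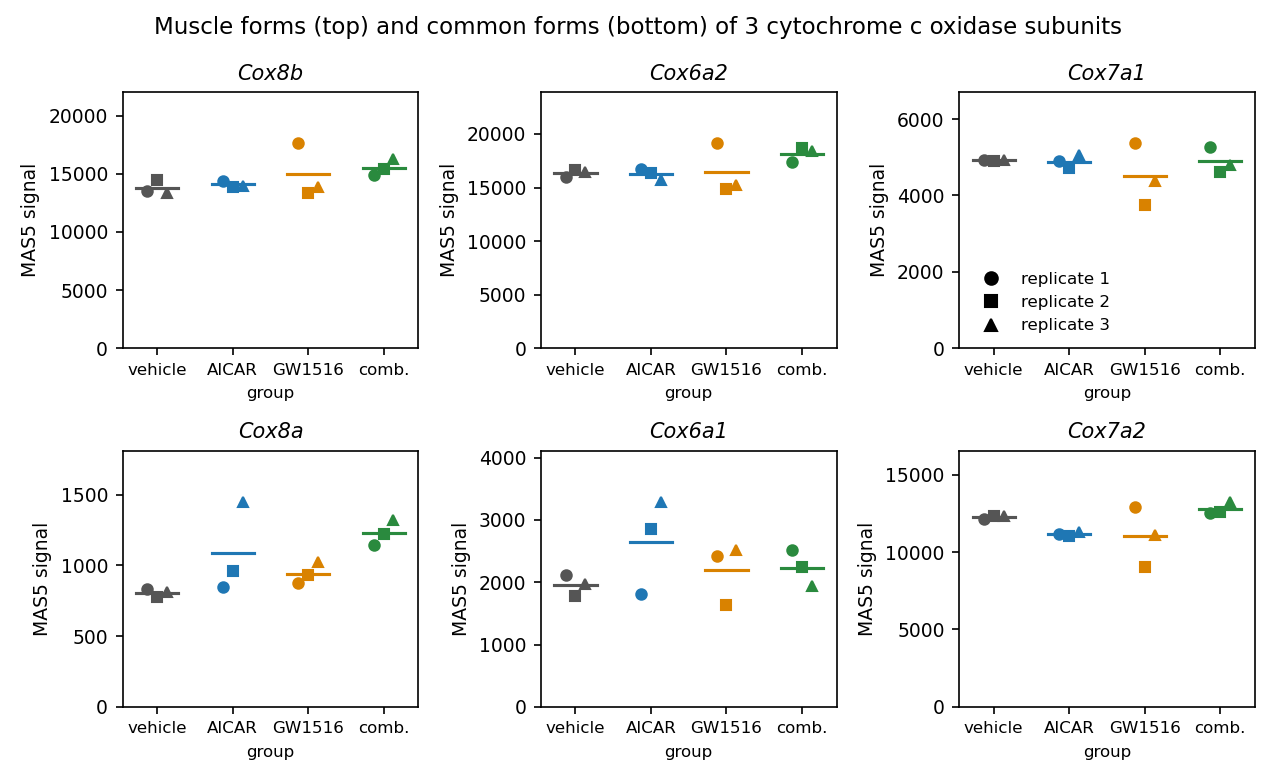
MAS5 signal of the heart and muscle form (top) and the general form (bottom) of 3 complex IV subunits, by group, with 1 point per array and a bar at the group mean. Axes start at 0 and differ between genes; Cox8a is above every vehicle array on all 9 treated arrays, and Cox8b, Cox6a2 and Cox7a1 each have their highest GW1516 signal on replicate 1.

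Cox4i1, the common form of the largest nuclear-encoded subunit, read 10054, 10511 and 10113 under vehicle, 10444, 10153 and 10429 under AICAR, 12414, 9482 and 9809 under GW1516 and 11492, 10956 and 11889 under the combination. The combination arrays were all above vehicle, by 0.16 (SE 0.09, adjusted limma p 0.54). Cox4i2, the lung and hypoxia form, was dim, at 76.0, 99.5 and 84.9 under vehicle, 86.1, 72.1 and 86.6 under AICAR, 142, 88.3 and 82.7 under GW1516 and 76.2, 77.7 and 59.8 under the combination. It had both the highest member difference under GW1516 (0.23, SE 0.24) and the lowest under the combination (-0.29, SE 0.24), and none of its comparisons with vehicle was called. The ratio of Cox4i1 to Cox4i2 was higher by 0.37 with AICAR than without, with an exact permutation p of 0.0108 over 6 against 6 arrays and 0.325 after adjustment over the 30 comparisons.

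Cox7c, a small structural subunit, was the dimmest member tested. It read 41.0, 31.5 and 47.2 under vehicle, 36.5, 78.0 and 74.2 under AICAR, 54.9, 40.3 and 34.3 under GW1516 and 44.0, 18.4 and 48.7 under the combination, and the groups overlapped. Its AICAR difference of 0.60 was the largest of any member and had an SE of 0.45 (adjusted limma p 0.82). Cox6b1, the common form opposite the testis form Cox6b2, read 13663, 13151 and 12745 under vehicle, 13471, 12773 and 12942 under AICAR, 14526, 11032 and 11844 under GW1516 and 14153, 14225 and 15168 under the combination, where all 3 arrays were above vehicle (0.14, SE 0.09). Cox5a and Cox5b, both at the matrix face, were at 0.13 and 0.16 under the combination, each with all 3 arrays above vehicle. The 2 further bright probe sets of Cox5a both stood at -0.06 there, the opposite direction, while the 3 further bright ones of Cox5b stood between 0.13 and 0.14. Cox6c stood at 0.08 there, the testis form Cox8c at -0.13 (SE 0.17), and Cox7a2l at 0.02. Further probe sets went the opposite way under the combination. They stood at -0.01 for Cox6c, at 0.60 for Cox8c on a dimmer one, and at -0.16 and -0.24 for Cox7a2l.

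Complex V had medians of -0.07 under AICAR, -0.04 under GW1516 and 0.05 under the combination, and its GW1516 median was -0.17 without GW1516 replicate 1 and 0.0078 without replicate 2. Its catalytic beta subunit, Atp5b, read 16204, 14492 and 15049 under vehicle and 14474, 15232 and 15194 under AICAR. Under GW1516 it read 18430.0, 14758 and 15981 and under the combination 16880.3, 17133 and 15983. The groups overlapped in each comparison with vehicle, and the average GW1516 effect was 0.13 (SE 0.06, unadjusted p 0.0489, adjusted p 0.521, limma). Of the rest of the F1 head and central stalk, Atp5a1 stood at -0.08, Atp5c1 at -0.07, Atp5d at -0.11 and Atp5e at -0.03 under AICAR. Of the peripheral stalk, Atp5pb was at -0.11, Atp5h at -0.03, Atp5j at -0.02 and Atp5o at -0.02.

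Atp5g1, Atp5g2 and Atp5g3 encode the same mature c subunit, the ring that turns with the proton flow. Atp5g1 read 10243, 10489 and 10511 under vehicle, 9904, 9588 and 9667 under AICAR, 11365, 8871 and 9592 under GW1516 and 10734, 10398 and 11259 under the combination. Atp5g2 read 6537, 6649 and 6769.9 under vehicle, 6384, 6088 and 6445 under AICAR, 7348, 6219 and 6398 under GW1516 and 6571, 6638 and 7782 under the combination. In both, all 3 AICAR arrays lay below vehicle, with differences of -0.10 (SE 0.08) and -0.08 (SE 0.08). Atp5g3 read 15271, 16404 and 14993 under vehicle, 14424, 15215 and 15099 under AICAR, 17365, 14051 and 15327 under GW1516 and 16325, 16920.2 and 16939.8 under the combination, with overlap in each comparison with vehicle. Its combination arrays all lay above its AICAR arrays. The log2 ratios of Atp5g1 to Atp5g2 and to Atp5g3 differed between groups by -0.07 to 0.02, and the lowest exact permutation p for them was 0.1. Over the alternatives tried these differences ran from -0.30 to 0.20. A second, far dimmer probe set of Atp5g1, with a mean signal of 44.7, stood at 0.12 under AICAR and -0.19 under the combination. Both are opposite in direction to the brightest.

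Among the membrane subunits around the ring, Atp5l, subunit g, read 7683, 7309 and 7797 under vehicle and 6666, 6659.5 and 6959 under AICAR. Under GW1516 it read 8335, 6933 and 6992 and under the combination 7366, 6613 and 6806. All 3 AICAR arrays were below vehicle, and the combination arrays overlapped it. The difference was -0.17 (SE 0.08) under AICAR and -0.13 (SE 0.08) under the combination, and the average AICAR effect -0.13 (unadjusted p 0.0364, adjusted p 0.446, limma). Atp5k, subunit e, was at -0.13 and -0.16 in the same 2 comparisons. Atp5j2, subunit f, had the smallest F-test p of complex V (adjusted limma p 0.549) and read 9136, 9184 and 8591 under vehicle, 8522, 8534 and 9126 under AICAR, 9387, 6846 and 7718 under GW1516 and 9406, 9502 and 9247 under the combination. Its combination arrays were all above vehicle, if narrowly, and its GW1516 difference of -0.18 (SE 0.09) was the lowest of any member there. A second bright probe set of Atp5j2 stood at -0.07 under the combination, the opposite direction, and at -0.18 under GW1516. Atp5md, a small accessory subunit of the dimeric enzyme, read 5816, 5683 and 5075 under vehicle, 6108, 6644 and 6148 under AICAR, 7132, 5671 and 4323 under GW1516 and 6081, 5856 and 6463 under the combination. Both the AICAR and the combination arrays lay above vehicle, by 0.19 (SE 0.13) and 0.15 (SE 0.13), and the other small accessory subunit, Atp5mpl, was at -0.09 and 0.07.

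Other genes of oxidative phosphorylation, from lists chosen with earlier results known, were read beside the members. Of 33 complex I subunits tested, 0 were called in any comparison, and their medians were -0.06 under AICAR, -0.12 under GW1516 and 0.03 under the combination, with an interaction above zero in 32 of 33. Of 30 assembly factors of complexes II to V, 0 were called, and their medians were -0.12, -0.10 and -0.08 in the 3 comparisons with vehicle. Of 13 tricarboxylic acid cycle genes, 0 were called, with medians of -0.03, -0.11 and 0.03. Of 10 genes for ADP and ATP exchange, 0 were called, with medians of -0.03, -0.04 and 0.06. The GW1516 arrays differed for these lists too. On replicates 1, 2 and 3 the median was 0.11, -0.33 and -0.12 for complex I and 0.09, -0.25 and -0.12 for the cycle genes. It was 0.11, -0.13 and -0.07 for the exchange genes and -0.08, -0.20 and -0.16 for the assembly factors. The complex I interaction count draws on these arrays and was not computed with any of them left out. Atpif1, the inhibitor of ATP synthase, stood at -0.60 under GW1516 (adjusted limma p 0.436).

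None of 18 tested regulators of these genes was called in a comparison with vehicle, and 1, 2 and 4 of them had an unadjusted p below 0.05 under AICAR, GW1516 and the combination, where 6.93%, 9.64% and 10.9% of all genes had. Ppargc1a, which encodes PGC-1 alpha, stood at 0.21, 0.07 and -0.04 in that order. Esrra, the oestrogen-related receptor alpha, stood at 0.12, -0.11 and 0.27, and Nrf1 at -0.0019, 0.32 and 0.10. Gabpa was at -0.42 under the combination and Nrip1, a corepressor of oxidative genes, at 0.41, with adjusted limma p-values of 0.324 and 0.27.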

How the data were processed

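Quadriceps RNA was hybridised to 12 arrays, 3 per group, each a pool of 3 mice. The authors deposited MAS5 intensity values on a linear scale, 1 per probe set, per the submitters' processing notes; the MAS5 version is not given in the sources used here. A floor of 1 was applied to the signals (3531 of 540444 values lay under it) before the log2 step, and arrays were not normalized further. Of 45037 probe sets without controls, 34945 carried 1 gene symbol, 932 several and 9160 none. Probe sets below a signal of 28.2, the lowest 40%, were left out, and each gene was read from its brightest probe set. The fit used limma 3.58.1 under R 4.3.3, with a variance trend, all arrays, 8 residual degrees of freedom and 5.91 from the prior. P-values were two-sided and adjusted over 12771 genes by the Benjamini-Hochberg method. The fit was tested on simulated data. Ratios of isoforms were compared by exact permutation tests over arrays, 20 arrangements for 3 against 3 and 924 for 6 against 6. Values by array were given for the members of smallest F-test p in each complex, those with an unadjusted p below 0.05, isoform pairs and the extremes. The members, lists and tests were chosen with earlier results of these data known. Alternatives covered scaling, floor, filter, probe set, variance model, array weights, arrays in the fit and replicate number.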

Additional observations from a re-analysis of the deposited data

How the results depend on the processing

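Members called stayed at 0 under all alternatives run with 2 exceptions, both for the combination against vehicle. There 1 member, Cox8a, was called when only vehicle and combination arrays entered the fit, and when AICAR replicate 3 was left out. Leaving out each array in turn gave 0 to 1 members called in that comparison, the 1 without AICAR replicate 3. Median centring put the median member at -0.16 for AICAR against vehicle, -0.086 for the average AICAR effect and 0.0020 for the combination against GW1516, and by construction it moved the median of all genes too. Leaving out each array in turn gave medians of -0.16 to 0.026 for GW1516 against vehicle, 0.067 to 0.27 for the interaction and 0.025 to 0.23 for the combination against GW1516. With the replicate number as a block (replicate block), 0 members were called; the medians of -0.05, -0.04 and 0.06 for AICAR, GW1516 and the combination against vehicle are the same by construction, since each number occurs once in every group. The numbers did not pair the arrays: over 18 same-numbered pairs the correlation of deviations ran from -0.11 to 0.07. The median for AICAR against vehicle was negative under all 23 alternatives tried, and that for the combination was positive under 22 of 23. These counts include alternatives that could not change such a median. They are the replicate block, a fit to vehicle and the treated group alone, and leaving out an array of another group. The median under the combination came near zero or below it with scaling and probe set, as given above. The cause of these changes was not tested. The few arrays per group limit what differences can be called.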
